A study of Mus musculus with 38 samples.

Results

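A set of 33 genes that carry fatty acids into cardiomyocytes and oxidise them was followed in left ventricular RNA of a mouse model of HFpEF, heart failure in which the ejection fraction is preserved. The genes were chosen by name for their role in the pathway, and all 33 were found among the 29564 genes of the tables. All 33 also passed the filter on low counts, which left 13765 genes for testing. The hearts came from wild-type C57BL6 mice in 4 groups, 1 library per mouse. The non_failing group (n = 8) held controls without the HFpEF regimen, which the labels also list under vehicle. The other 3 groups had HFpEF from a high-fat diet combined with L-NAME, an inhibitor of nitric oxide synthases, so that diet and L-NAME cannot be told apart. They then received vehicle by mouth (HFpEF+Veh, n = 8), TYA-018, an inhibitor of the deacetylase HDAC6 (HFpEF+TYA-018, n = 11), or empagliflozin, an inhibitor of the kidney glucose transporter SGLT2 (HFpEF+SGLT2i, n = 11). Labels and published methods disagree on the sex of the mice and on how long they were treated, and the labels give no age. Libraries are named by mouse number (V2523).

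The heart takes most of its energy from fatty acids. Cd36 and fatty acid transport proteins bring them across the membrane, binding proteins such as Fabp3 carry them through the cytosol, and acyl-CoA synthetases trap them as acyl-CoA. Cpt1 at the outer and Cpt2 at the inner mitochondrial membrane pass the acyl groups into the matrix by way of carnitine, and malonyl-CoA blocks Cpt1. In the matrix, each turn of beta-oxidation runs through a dehydrogenase, a hydratase, a second dehydrogenase and a thiolase, and electron transfer flavoprotein takes electrons to the respiratory chain. Many of these genes are textbook targets of the nuclear receptors PPARA and ERRA.

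Libraries held between 21451631 and 59280407 counts over all genes. Cardiomyocyte markers were abundant throughout, with a summed level of 5 markers between 7865 and 15341 TPM (a share of all transcripts, from reads scaled for transcript length and library total, so that levels of different genes can be compared), and the defining genes of white fat were near 0. One vehicle library stood apart in its hepatocyte markers. In V2523 the summed level of 8 hepatocyte markers was 1199 TPM, against 17.6 to 46.2 TPM in the other 7 vehicle libraries and 36.4 to 309 TPM in non_failing. V2523 also had the highest vehicle level of 17 of the 33 genes, many of which liver expresses, so fold changes of the set in vehicle against non_failing are given with and without it. Of the non_failing libraries, V2507 had the lowest TPM of 28 of the 33 genes. On counts scaled by TMM it was not the lowest. Its median log2 difference from the non_failing mean over the set was -0.16, against -0.16 in V2502 and -0.23 in V2510. Its mitochondrial transcripts made up 37.8% of the total, against 30.3% to 32.8% in the other 7. The libraries with the lowest summed level of the set in the other groups, V2530, V2550 and V2572, had mitochondrial shares of 36.3%, 36.6% and 39.5%, and V2523, with the highest in its group, 28.5%. The part of this share in the results was not tested. In homogenates of whole tissue, fewer cells of a type and less RNA per cell cannot be told apart.

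The 33 genes together took 0.60% to 0.93% of all TPM in the non_failing libraries (median 0.84%). In HFpEF+Veh they took 0.94% to 1.34% (median 1.15%), in HFpEF+TYA-018 0.95% to 1.32% (median 1.18%) and in HFpEF+SGLT2i 0.89% to 1.35% (median 1.23%). The share in every HFpEF+Veh library lay above that in every non_failing library. Fabp3 alone supplied a median of 31.8% of this total in non_failing and of 35.7%, 36.4% and 34.5% in the HFpEF groups in the order above. Levels within the set spanned more than 3 orders of magnitude, from a non_failing median of 0.726 TPM for Slc27a1 to 2579.5 TPM for Fabp3.

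HFpEF+Veh hearts carried more transcript of 8 of the 33 genes than non_failing hearts and less of 1 (edgeR, adjusted p under 0.05 over all genes tested). Among all 13765 genes, 1.77% were called higher and 1.38% lower in this comparison. The 8 were Fabp3, Dbi, Cpt1a, Cpt1b, Cpt2, Acaa2, Decr1 and Ech1, and the 1 was Acsl6. The median log2 fold change was 0.24 over the 33 genes and 0.01 over all genes, and 27 of the 33 lay above 0, where 52.3% of all genes did. Without V2523, 7 of the 33 genes were called higher, against 2.04% of all genes, since Cpt1a no longer passed (adjusted p 0.0602), the median fell to 0.18 and 21 of the 33 lay above 0.

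Against non_failing, the treated groups had more calls. In HFpEF+TYA-018, 14 genes were called higher and 1, Acsl4, lower, where 4.00% and 3.39% of all genes were. In HFpEF+SGLT2i, 18 were called higher, where 3.46% of all genes were, and 0 lower (6 had a log2 fold change below 0). The median over the 33 genes was 0.41 and 0.52 respectively, and 0.01 over all genes in both. These 3 comparisons share the non_failing libraries. They are also unequal in size, with 8 vehicle and 11 treated libraries in each drug group, so a larger number of calls does not show a larger difference. Without V2507, the counts of genes called in either direction were 8, 11 and 16 for vehicle, TYA-018 and empagliflozin, with 9, 15 and 18 when it was included. Calls over all genes fell too, from 433, 1017 and 888 to 390, 817 and 701, or 2.82%, 5.91% and 5.07% of the genes tested. Values for each gene follow in the order of the pathway.

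**Figure D1:**
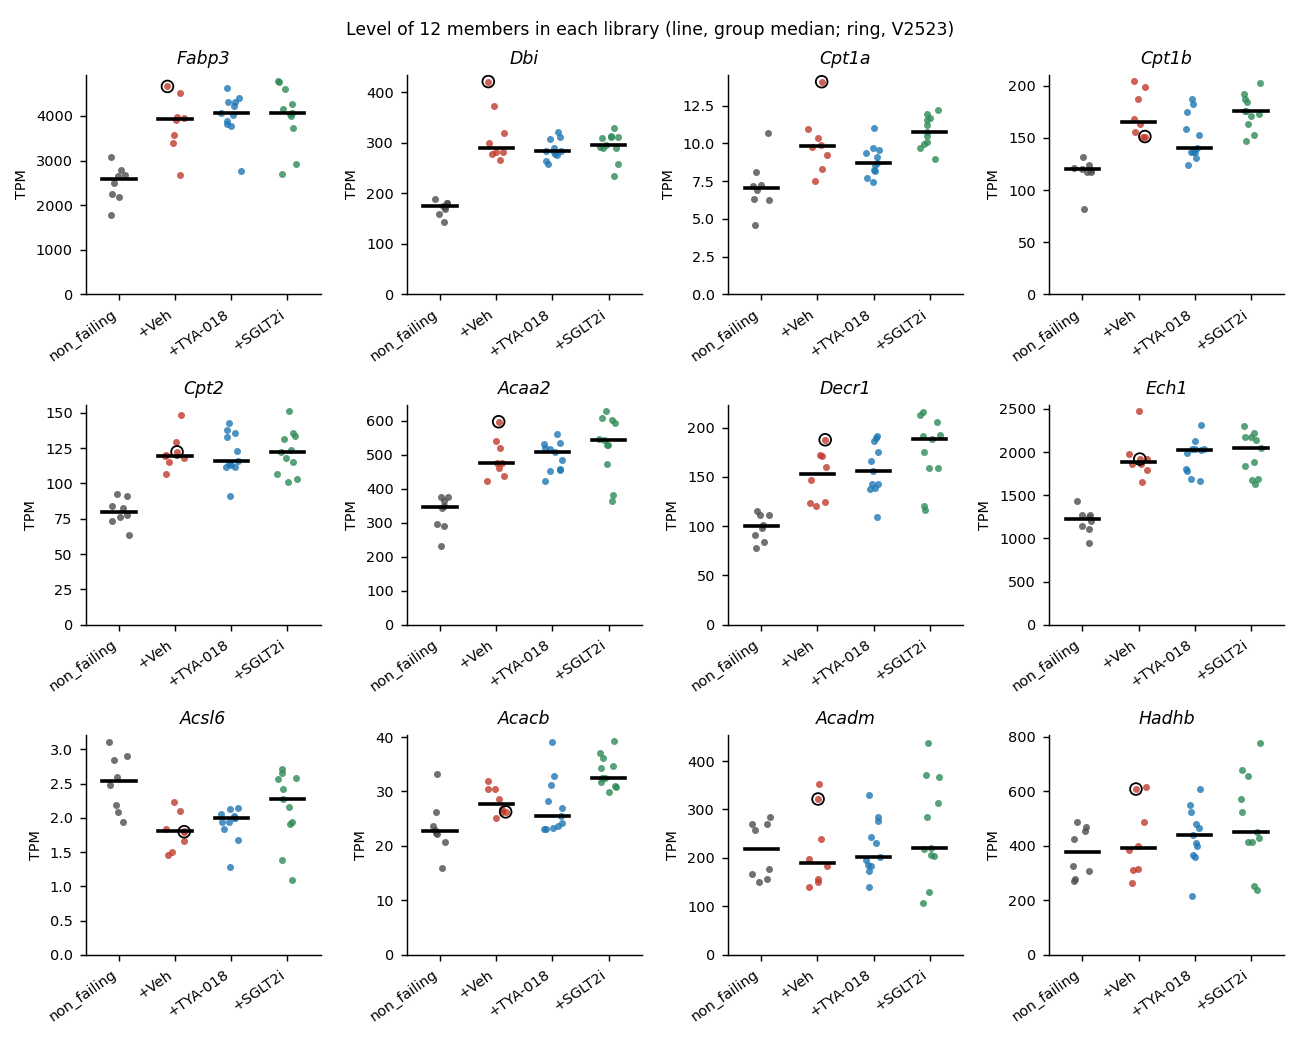
Level in TPM (vertical axis, linear, from 0) of 12 genes of the set in each library, by group. Points are libraries, lines are group medians and the ring marks V2523. In HFpEF+Veh the 8 Dbi values (265 to 421 TPM) all lie above the 8 non_failing values (143 to 188 TPM), while Acadm overlaps widely between the groups.

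Of the uptake genes, the binding protein Fabp3 rose and the membrane transporter Cd36 passed the test in the empagliflozin group. Fabp3 lay between 1771 and 3071 TPM in non_failing (median 2579.5) and between 2681 and 4661 TPM in HFpEF+Veh (median 3928). In HFpEF+TYA-018 it lay between 2771 and 4634 TPM (median 4066) and in HFpEF+SGLT2i between 2709.9 and 4778 TPM (median 4063). The overlap with non_failing came from 1 vehicle, 1 TYA-018 and 2 empagliflozin libraries. Relative to non_failing, Fabp3 was 1.43-fold higher with vehicle (log2 fold change 0.52 ± 0.11, SE, adjusted p 0.00529, and 0.48 without V2523, adjusted p 0.0108), 1.69-fold higher with TYA-018 (0.76 ± 0.11, adjusted p 7.25e-06) and also higher with empagliflozin (0.68 ± 0.11, adjusted p 4.53e-05).

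Cd36 ranged from 372 to 512 TPM in non_failing (median 426), 448 to 669 in HFpEF+Veh (median 564), 318 to 684 in HFpEF+TYA-018 (median 541) and 422 to 741 TPM in HFpEF+SGLT2i (median 606). Its difference from non_failing passed in HFpEF+SGLT2i (0.45 ± 0.10, adjusted p 0.00441) and missed the threshold in HFpEF+Veh (0.30 ± 0.11, adjusted p 0.146, and 0.29 without V2523), where all 8 libraries lay above the non_failing mean. Slc27a1, which encodes the transport protein FATP1, was low and variable, with 24.8 to 359 counts per library and a highest level of 2.83 TPM, and no comparison called it.

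Among the genes that activate or bind fatty acids, Dbi stood out. Dbi encodes the acyl-CoA binding protein, which holds long-chain acyl-CoA in the cytosol, and lies at chr1:120113280-120121078 on the minus strand (GRCm38, GENCODE M21). It held 143 to 188 TPM in non_failing (median 174), 265 to 421 TPM in HFpEF+Veh (median 289.7), 258 to 322 TPM in HFpEF+TYA-018 (median 284) and 235 to 329.6 TPM in HFpEF+SGLT2i (median 295). None of the 30 HFpEF libraries reached down to the highest non_failing library. The rise over non_failing was 1.75-fold with vehicle (log2 fold change 0.81 ± 0.08, adjusted p 1.36e-08), 1.77-fold with TYA-018 (0.82 ± 0.08, adjusted p 1.51e-09) and 1.67-fold with empagliflozin (0.74 ± 0.08, adjusted p 1.42e-08). Left without V2523, its highest library, vehicle still gave 0.76 (adjusted p 4.25e-08). By adjusted p, Dbi led the set in all 3 of these comparisons.

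The long-chain acyl-CoA synthetases, which couple fatty acids to coenzyme A, included 1 gene that fell in HFpEF+Veh, Acsl6, and none that was called higher in the fit without covariates. Acsl1, the main form in heart muscle, had medians of 72.4 TPM in non_failing, 73.8 in HFpEF+Veh, 83.9 in HFpEF+TYA-018 and 91.4 TPM in HFpEF+SGLT2i, with ranges of 49.9 to 102, 58.5 to 115, 62.0 to 113 and 54.1 to 148 TPM that overlapped throughout, and it was not called. The minor forms were far lower. Acsl3 ranged from 0.696 to 3.42 TPM over all libraries, Acsl4 from 1.85 to 4.19, Acsl5 from 2.99 to 6.82 and Acsl6 from 1.09 to 3.11 TPM.

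Acsl6 is a form best known from brain. It ranged from 1.94 to 3.11 TPM in non_failing (median 2.54), 1.46 to 2.23 in HFpEF+Veh (median 1.80), 1.29 to 2.15 in HFpEF+TYA-018 (median 2.00) and 1.09 to 2.72 TPM in HFpEF+SGLT2i (median 2.28). The vehicle group lay lower than non_failing with some overlap, and the empagliflozin group spanned most of both ranges. Its log2 fold change in HFpEF+Veh was -0.51 ± 0.13 (adjusted p 0.0247, lower in 8 of 8 libraries, and -0.52 without V2523). The call was lost when 1 of 5 libraries was left out, with an adjusted p of up to 0.0624 without V2501, and at library size scaling alone. Acsl4, which prefers arachidonic acid, passed only in HFpEF+TYA-018 against non_failing (-0.27 ± 0.09, adjusted p 0.0465), with 1.89 to 2.97 TPM against 2.44 to 3.07 TPM, and with 1 library left out it lost the call in 15 of 38 fits (V2502, V2503, V2507, V2509, V2510, V2527, V2529, V2546, V2549, V2550, V2552, V2566, V2570, V2573 or V2575, adjusted p up to 0.109). The Acsl4 call was also lost with no filter on low counts (edgeR, adjusted p 0.0629) and in both limma fits (0.149 and 0.141). In edgeR it was lost as well with the length offset (0.122) and with effective length as a covariate (0.0531). Acss1, the mitochondrial synthetase for acetate, had medians between 41.1 and 48.5 TPM in all groups and was not called.

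Promoter windows of 29 of the 33 genes were available from RefSeq (GRCm38.p6, mostly upstream of a start). Cpt1b, Crat, Acaa2 and Decr1 had no window and were not searched. Of these, Cpt1b, Acaa2 and Decr1 were called higher in HFpEF+Veh. A PPAR-type direct repeat, spelled as the half-site AGGNCA, any 1 base and AGGNCA again on either strand, was found in the windows of 0 of the 29 genes and in 0.381% of all 32851 windows. The ERR-type site TCAAGGTCA on either strand was found for 1 gene, Acsl6, and in 0.423% of all windows. Those letters describe these windows and say nothing of binding. The first line below is the Acsl6 stretch with the site, chr11:54303617-54303705 on the plus strand, with the site in capitals as read on the other strand, 167 bases before the start. The second line is the 120 bases before a start of Dbi, the gene with the clearest rise, chr1:120121097-120121216 on the minus strand, where neither site was found.
Acsl6: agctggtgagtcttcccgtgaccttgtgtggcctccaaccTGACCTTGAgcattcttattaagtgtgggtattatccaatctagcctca
Dbi: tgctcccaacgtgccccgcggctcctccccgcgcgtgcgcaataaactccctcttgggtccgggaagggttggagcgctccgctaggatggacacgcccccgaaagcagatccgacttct

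Of the 4 genes of the carnitine shuttle, Cpt1b, Cpt1a and Cpt2 were called higher in HFpEF+Veh, and all 4, Crat included, in both treated groups against non_failing. Cpt1b, the muscle form of the gate that carnitine palmitoyltransferase 1 provides, lies at chr15:89416405-89425863 on the minus strand. It held 81.7 to 131 TPM in non_failing (median 119.8), 151 to 205 in HFpEF+Veh (median 165), 124 to 187 in HFpEF+TYA-018 (median 140.5) and 147 to 203 TPM in HFpEF+SGLT2i (median 175). Vehicle and empagliflozin libraries lay above every non_failing library, and TYA-018 libraries overlapped them at the low end. Its log2 fold change over non_failing was 0.44 ± 0.08 with vehicle (adjusted p 0.000827, and 0.47 without V2523), 0.42 ± 0.08 with TYA-018 (adjusted p 0.000361) and 0.56 ± 0.08 with empagliflozin (adjusted p 2.87e-06). An overlapping annotated gene on the same strand shares part of its position.

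Cpt1a, the liver form, was more than 10-fold lower in level, at 4.58 to 10.7 TPM in non_failing (median 7.04) and 7.49 to 14.1 TPM in HFpEF+Veh (median 9.83). It lay at 7.46 to 11.0 TPM in HFpEF+TYA-018 (median 8.73) and 8.94 to 12.2 TPM in HFpEF+SGLT2i (median 10.7). The highest vehicle value came from V2523, and the next was 10.9 TPM. Cpt1a passed with vehicle (0.40 ± 0.11, adjusted p 0.0281, and 0.33 without V2523, adjusted p 0.0602), with TYA-018 (0.33 ± 0.10, adjusted p 0.0341) and with empagliflozin (0.59 ± 0.10, adjusted p 0.000188).

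Cpt2, which rebuilds acyl-CoA in the matrix, held 63.4 to 92.4 TPM in non_failing (median 80.1), 107 to 149 in HFpEF+Veh (median 119.7), 90.9 to 143 in HFpEF+TYA-018 (median 116) and 101 to 151 TPM in HFpEF+SGLT2i (median 122). The vehicle and empagliflozin groups did not overlap non_failing. It rose 1.34-fold with vehicle (0.42 ± 0.11, adjusted p 0.0224, and 0.38 without V2523, adjusted p 0.0402), 1.50-fold with TYA-018 (0.59 ± 0.10, adjusted p 0.000191) and 1.58-fold with empagliflozin (0.66 ± 0.10, adjusted p 3.34e-05). Without V2507 the vehicle value of Cpt2 no longer passed (adjusted p 0.0584). Crat, which exchanges acetyl groups between coenzyme A and carnitine, held 57.6 to 106 TPM in non_failing and 90.9 to 133 TPM in HFpEF+Veh, where it was not called. Its values of 109 to 137 TPM in HFpEF+TYA-018 lay above every non_failing library (0.52 ± 0.11, adjusted p 0.00141), and those of 90.3 to 142 TPM in HFpEF+SGLT2i gave 0.56 ± 0.11 (adjusted p 0.000555).

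Both genes that set malonyl-CoA, the brake on Cpt1, were measured. Acacb makes malonyl-CoA at the mitochondrial surface and Mlycd breaks it down. Acacb (chr5:114146535-114250761, plus strand) held 16.0 to 33.2 TPM in non_failing (median 22.7), 25.05 to 31.9 in HFpEF+Veh (median 27.6), 23.1 to 39.1 in HFpEF+TYA-018 (median 25.5) and 29.8 to 39.2 TPM in HFpEF+SGLT2i (median 32.6). The empagliflozin libraries formed the upper end, and overlapped each other group. Acacb was the gene of the set that passed in a drug group against vehicle, described further on. Against non_failing its log2 fold change was 0.51 ± 0.09 with empagliflozin (adjusted p 0.000465) and 0.13 ± 0.10 with vehicle (adjusted p 0.547, and 0.15 without V2523). Mlycd held 18.9 to 37.9 TPM in non_failing (median 28.4) and 30.3 to 51.5 TPM in HFpEF+Veh (median 34.5, 0.28 ± 0.11, adjusted p 0.18, and 0.20 without V2523). In HFpEF+TYA-018 it held 30.5 to 43.5 TPM (median 39.5, 0.48 ± 0.10, adjusted p 0.00308) and in HFpEF+SGLT2i 32.3 to 52.4 TPM (median 44.8, 0.59 ± 0.10, adjusted p 0.000299). So both the maker and the remover of malonyl-CoA were called higher with empagliflozin against non_failing, and Mlycd of this pair with TYA-018. The direct test of Acacb between the drugs is given with the drug comparisons.

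The acyl-CoA dehydrogenases start each turn and divide the work by chain length. None of the 4 was called in HFpEF+Veh. Acadvl, for very long chains, held 233 to 345 TPM in non_failing (median 298) and 338 to 542 TPM in HFpEF+Veh (median 436), followed by 378 to 531 in HFpEF+TYA-018 (median 429.7) and 403 to 511 TPM in HFpEF+SGLT2i (median 457). Both treated groups lay above every non_failing library, with log2 fold changes of 0.57 ± 0.11 (adjusted p 0.000687) and 0.64 ± 0.11 (adjusted p 0.000169). Acadl, for long chains, held 207 to 324 TPM in non_failing (median 275) and 266 to 451 TPM in HFpEF+Veh (median 348), which gave 0.23 ± 0.14 (adjusted p 0.417, and 0.18 without V2523). It held 279 to 481 TPM in HFpEF+TYA-018 (median 364, 0.47 ± 0.13, adjusted p 0.0198) and 229 to 515 TPM in HFpEF+SGLT2i (median 402, 0.52 ± 0.13, adjusted p 0.0103).

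Acadm, the medium-chain enzyme, showed no such shift. Its libraries ranged from 149.5 to 285 TPM in non_failing (median 218), 140.1 to 353 in HFpEF+Veh (median 190.2), 141 to 330.4 in HFpEF+TYA-018 (median 202) and 108 to 437 TPM in HFpEF+SGLT2i (median 221). The difference with vehicle was -0.11 ± 0.25 (adjusted p 0.876, and -0.21 without V2523), and an error of this size leaves changes of up to 0.40 and down to -0.61 on the log2 scale within its 95% interval. Acads, for short chains, held 28.1 to 55.5 TPM in non_failing (median 44.4), 42.6 to 79.5 in HFpEF+Veh (median 61.6), 34.9 to 76.9 in HFpEF+TYA-018 (median 60.8) and 36.0 to 101 TPM in HFpEF+SGLT2i (median 62.6). It passed with empagliflozin (0.61 ± 0.17, adjusted p 0.0263, higher in 9 of 11 libraries).

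The last 3 steps of the cycle run in the trifunctional protein for long chains and in Echs1, Hadh and Acaa2 for shorter ones. Acaa2, the medium-chain thiolase, was the gene called here in HFpEF+Veh. It held 232 to 377 TPM in non_failing (median 347), 423 to 597 in HFpEF+Veh (median 475), 424 to 560.4 in HFpEF+TYA-018 (median 509) and 363 to 627 TPM in HFpEF+SGLT2i (median 544). Vehicle and TYA-018 libraries lay above every non_failing library. Its log2 fold change was 0.49 ± 0.10 with vehicle (adjusted p 0.00256, and 0.45 without V2523), 0.67 ± 0.09 with TYA-018 (adjusted p 5.35e-06) and 0.69 ± 0.09 with empagliflozin (adjusted p 2.64e-06). Echs1, the short-chain hydratase, had lower medians in the HFpEF groups (67.8, 77.8 and 76.7 TPM, against 88.4 TPM in non_failing), with ranges of 62.3 to 106 TPM in non_failing and 50.4 to 106, 44.3 to 109.6 and 44.3 to 138 TPM in the HFpEF groups in the same order, and was not called. Hadh, the short-chain hydroxyacyl-CoA dehydrogenase, held 119 to 204 TPM in non_failing (median 169), 142 to 267 in HFpEF+Veh (median 179), 155 to 252 in HFpEF+TYA-018 (median 205) and 109 to 291 TPM in HFpEF+SGLT2i (median 198) and was not called either.

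Hadha and Hadhb encode the alpha and beta subunits of the trifunctional protein and lie head to head, Hadha at chr5:30118304-30155162 on the minus strand and Hadhb at chr5:30155248-30184593 on the plus strand. The 85 bases between the annotated genes, chr5:30155163-30155247 on the plus strand, are shown because both genes start from them.
Hadha-Hadhb gap: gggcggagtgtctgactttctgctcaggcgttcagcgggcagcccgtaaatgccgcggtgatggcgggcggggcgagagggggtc

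Hadha held 103 to 181 TPM in non_failing (median 151), 155 to 282 in HFpEF+Veh (median 204), 145 to 281 in HFpEF+TYA-018 (median 197) and 144 to 339.7 TPM in HFpEF+SGLT2i (median 227). Hadhb held 272 to 486 TPM in non_failing (median 377), 265 to 618 in HFpEF+Veh (median 393), 217 to 607 in HFpEF+TYA-018 (median 441) and 239.6 to 779 TPM in HFpEF+SGLT2i (median 452). Groups overlapped for both subunits, more widely for Hadhb. Hadha gave 0.38 ± 0.16 with vehicle (adjusted p 0.239, and 0.30 without V2523), 0.53 ± 0.15 with TYA-018 (adjusted p 0.0258) and 0.69 ± 0.15 with empagliflozin (adjusted p 0.00433). Hadhb was not called in any comparison, and the difference between the subunits was not tested.

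Oxidation of unsaturated chains needs auxiliary enzymes, and 2 of them were among the clearest risers. Decr1, the mitochondrial dienoyl-CoA reductase, held 77.7 to 115 TPM in non_failing (median 100.0), 120.1 to 188 in HFpEF+Veh (median 153), 109 to 192 in HFpEF+TYA-018 (median 156) and 116 to 216 TPM in HFpEF+SGLT2i (median 188). It rose 1.45-fold with vehicle (0.53 ± 0.11, adjusted p 0.00329, and 0.50 without V2523), 1.65-fold with TYA-018 (0.72 ± 0.10, adjusted p 1.05e-05) and 1.75-fold with empagliflozin (0.81 ± 0.10, adjusted p 1.09e-06). Vehicle and empagliflozin libraries did not overlap non_failing. Ech1, a dienoyl-CoA isomerase, was second in level to Fabp3 within the set, at 950.4 to 1435 TPM in non_failing (median 1221), 1651 to 2473 in HFpEF+Veh (median 1889), 1664 to 2318 in HFpEF+TYA-018 (median 2022) and 1628 to 2304 TPM in HFpEF+SGLT2i (median 2042). No HFpEF library of any group reached down to the non_failing range. Its log2 fold changes were 0.51 ± 0.09 (adjusted p 0.000584, and 0.50 without V2523), 0.72 ± 0.08 (adjusted p 3.23e-07) and 0.71 ± 0.08 (adjusted p 2.63e-07) in the same order.

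The enoyl-CoA isomerases were less uniform. Eci2 held 28.6 to 50.6 TPM in non_failing (median 41.8), 37.8 to 69.8 in HFpEF+Veh (median 46.9), 38.8 to 75.4 in HFpEF+TYA-018 (median 51.4) and 36.2 to 80.9 TPM in HFpEF+SGLT2i (median 55.3). It passed with TYA-018 (0.50 ± 0.14, adjusted p 0.0206) and empagliflozin (0.55 ± 0.14, adjusted p 0.0118), not with vehicle. Eci1 was listed at exactly 0 in 7 libraries (non_failing 1, vehicle 1, TYA-018 3, empagliflozin 2) and at up to 3089 counts (65.3 TPM) in others. Its medians were 24.1, 40.6, 30.0 and 30.3 TPM in the order of the groups. Since hearts use this isomerase throughout, a listing at 0 may not be a measured absence, and no fold change is given.

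Electron transfer flavoprotein (Etfa and Etfb) and its dehydrogenase (Etfdh) receive the electrons of the first step. None of the 3 was called in any comparison. Etfb held 474 to 753 TPM in non_failing (median 564), 488 to 783 in HFpEF+Veh (median 640.5), 561 to 784 in HFpEF+TYA-018 (median 636) and 457 to 758 TPM in HFpEF+SGLT2i (median 648). Etfa, its partner subunit, held 152 to 275, 118 to 355, 90.1 to 339.8 and 112 to 434 TPM in the same order (medians 208, 185, 207 and 214). Etfdh had medians of 73.9, 85.7, 97.2 and 99.9 TPM within ranges of 54.8 to 95.1, 64.5 to 144, 49.8 to 144 and 59.3 to 177 TPM. For Etfa, the HFpEF groups extended beyond the non_failing range on both sides. For Etfdh, they all extended above it and HFpEF+TYA-018 also below it. Ehhadh, the bifunctional enzyme of peroxisomes, was low, at 2.39 to 5.17 TPM in non_failing (median 3.38), 2.74 to 5.70 in HFpEF+Veh (median 3.65), 2.90 to 7.60 in HFpEF+TYA-018 (median 4.09) and 3.40 to 6.17 TPM in HFpEF+SGLT2i (median 5.43). It passed with empagliflozin against non_failing (0.52 ± 0.15, adjusted p 0.0324).

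Of the 43 called values, 32 were called in every alternative fit. The other 11 kept their direction. Besides Acsl4, Acsl6, Cpt2 and Acacb, described with their values, Acadl with TYA-018 lost its call at library size alone (0.41, adjusted p 0.0551). Cpt1a lost it with vehicle when only the 2 groups compared were fitted (adjusted p 0.142), and with TYA-018 in that fit, at library size alone and in both limma fits (adjusted p 0.0811 to 0.118). Eci2 with TYA-018 lost it at library size alone, in both limma fits and with the length offset (adjusted p 0.0549 to 0.063), Hadha with TYA-018 at library size alone (adjusted p 0.0634), and Ehhadh with empagliflozin with the length offset (adjusted p 0.0548) and with limma on log2(TPM + 1). With single libraries left out, more calls were lost. Cpt1a with vehicle lost its call without V2502, V2504, V2508, V2523, V2529 or V2530 (log2 fold change 0.33 to 0.40), and with TYA-018 without V2502, V2504, V2507, V2508, V2509, V2551, V2552, V2559 or V2570 (0.26 to 0.34). In HFpEF+TYA-018, Hadha lost it without V2502, V2507, V2509 or V2510 (0.49 to 0.51) and Eci2 without V2507 (0.47). In HFpEF+SGLT2i, Acads lost it without V2502, V2507, V2509 or V2510 (0.55 to 0.58), and Ehhadh without V2502, V2504, V2507, V2508, V2509, V2510, V2564, V2565, V2572 or V2574 (0.47 to 0.52). Libraries of 1 group can change a call in another comparison because all groups share the estimate of spread.

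**Figure D2:**
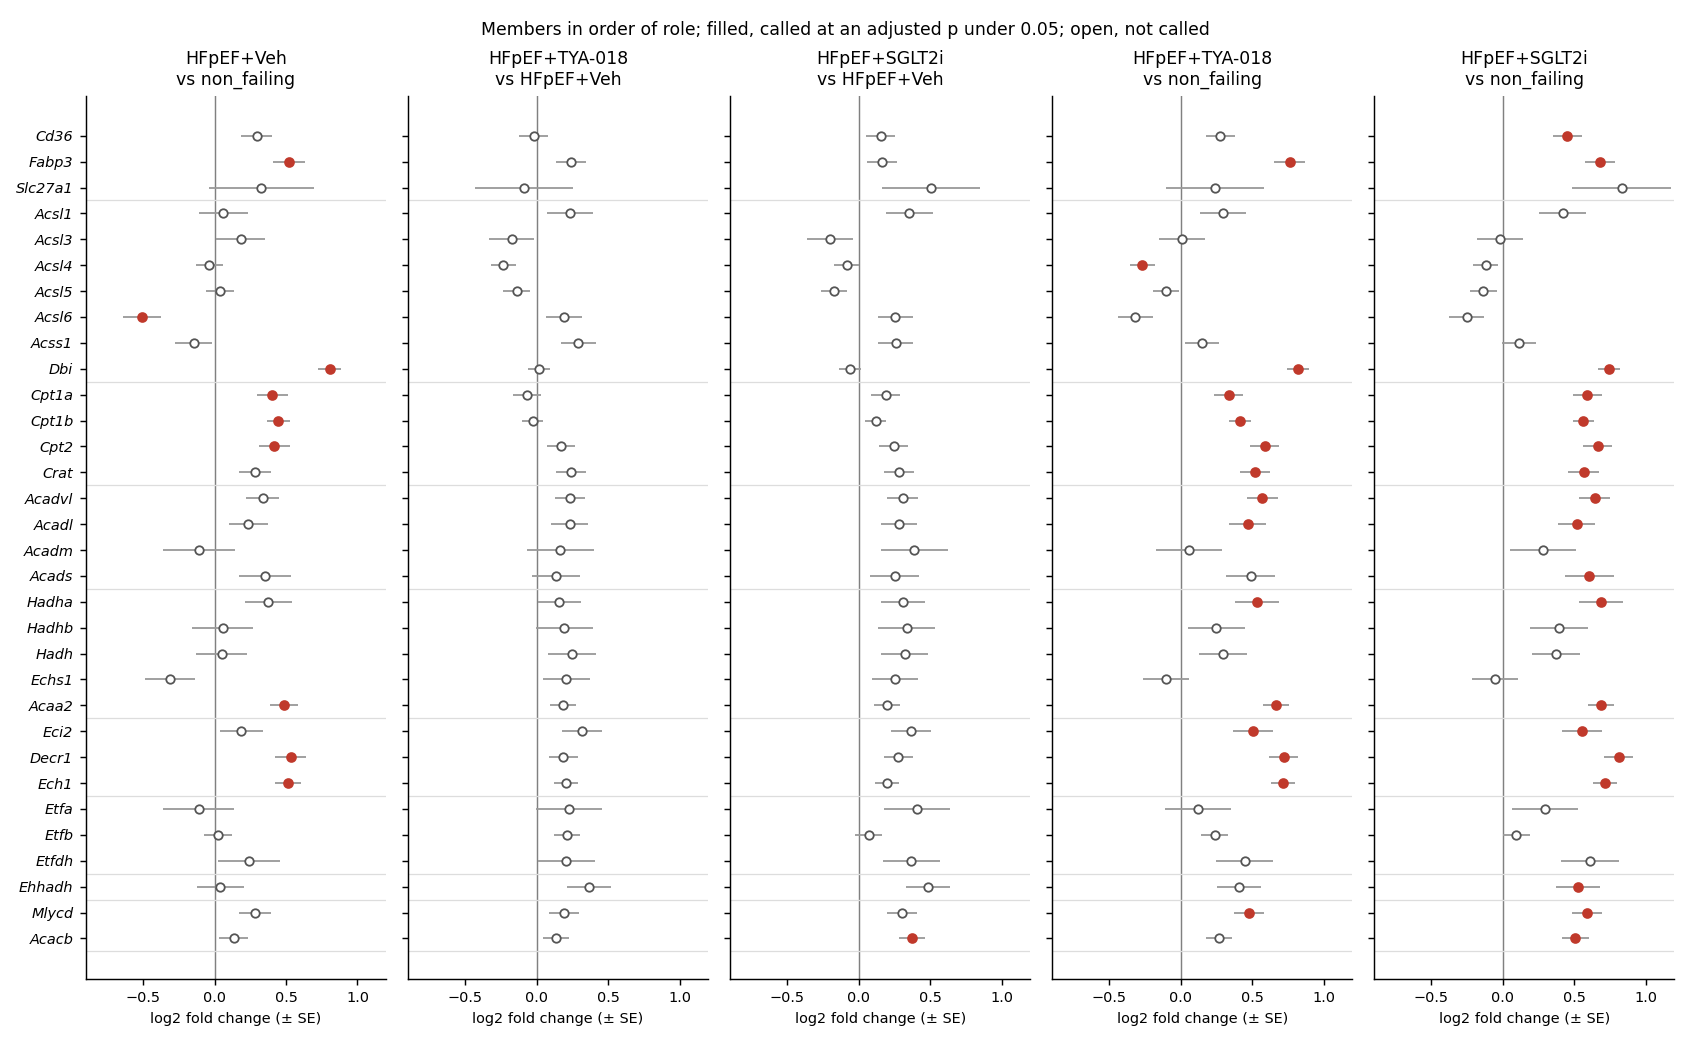
Log2 fold change with its SE (horizontal axis) of 32 genes of the set in 5 comparisons, in pathway order, without Eci1. Filled points were called at an adjusted p under 0.05 and open points were not. Calls lie in the 3 panels against non_failing, and Acacb is the 1 call in the panels against vehicle.

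Against vehicle, neither drug moved the set past the test, apart from Acacb. With TYA-018, 0 of the 33 genes were called, where 1.93% of all genes were called in either direction (edgeR). An unadjusted p under 0.05 (edgeR) was reached by 9 of the 33 and by 2404 of all 13765 genes. Of the 33, the DESeq2 Wald test and limma also called 0. At library size alone, edgeR called 1, Acsl4 (-0.36, adjusted p 0.0164), where 1096 of all 13765 genes were called. The differences were small and mostly above 0, in 26 of 33 genes, with a median of 0.19 where the median of all genes was -0.01. At library size alone, all genes shifted to a median of -0.14 and the set to 0.06, so the set stayed above the rest while single directions depend on the scaling. For 20 of the 32 genes other than Eci1 the 95% interval lay within 0.5 on either side of 0 on the log2 scale. Cpt1b is an example of the scaling, with a median of 140.5 TPM against 165 TPM and a log2 fold change of -0.03 ± 0.07.

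With empagliflozin, Acacb was called higher than with vehicle, 1.30-fold (log2 fold change 0.37 ± 0.09, adjusted p 0.0387, higher in 11 of 11 libraries), where 0.131% of all genes were called higher. The call did not hold without V2523 (0.36, adjusted p 0.146), and with 1 library left out 12 of 38 fits lost it, 5 of them without a vehicle library (V2521, V2523, V2528, V2529 or V2530) and 7 without an empagliflozin library (V2561, V2565, V2566, V2572, V2573, V2574 or V2575), at adjusted p values of 0.0502 to 0.146. V2523 held 26.3 TPM of Acacb, inside the range of the other vehicle libraries, and the size of the difference hardly moved when it was left out. Genes above 0 numbered 28 of 33, with a median of 0.26 against 0.01 over all genes. For 13 of the 32 genes other than Eci1 the 95% interval lay within 0.5 on either side of 0. Both drug comparisons use the same 8 vehicle libraries, so the lean of both toward higher values is not 2 separate observations, and without V2523 the medians were 0.22 with TYA-018 and 0.32 with empagliflozin.

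Compared directly, TYA-018 and empagliflozin differed in 0 of the 33 genes, where 0% of all genes were called by edgeR. In the set, 3 genes had an unadjusted p under 0.05 (edgeR), where 1821 of all 13765 genes did. The DESeq2 Wald test called 0 of the set and 1.34% of all genes. The lowest adjusted p was that of Acacb, which was lower with TYA-018 by 0.24 ± 0.08 on the log2 scale (log2 fold change -0.24, 95% interval -0.41 to -0.07, adjusted p 0.198). Cpt1a gave -0.26 ± 0.09 (interval -0.44 to -0.07, adjusted p 0.202) and Cpt1b -0.15 ± 0.07 (interval -0.29 to -0.01, adjusted p 0.342). For 27 of 32 genes the interval lay within 0.5 on either side of 0. For those genes, differences between the drugs larger than 0.5 lie outside the interval, while smaller ones can lie inside it.

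**Figure D3:**
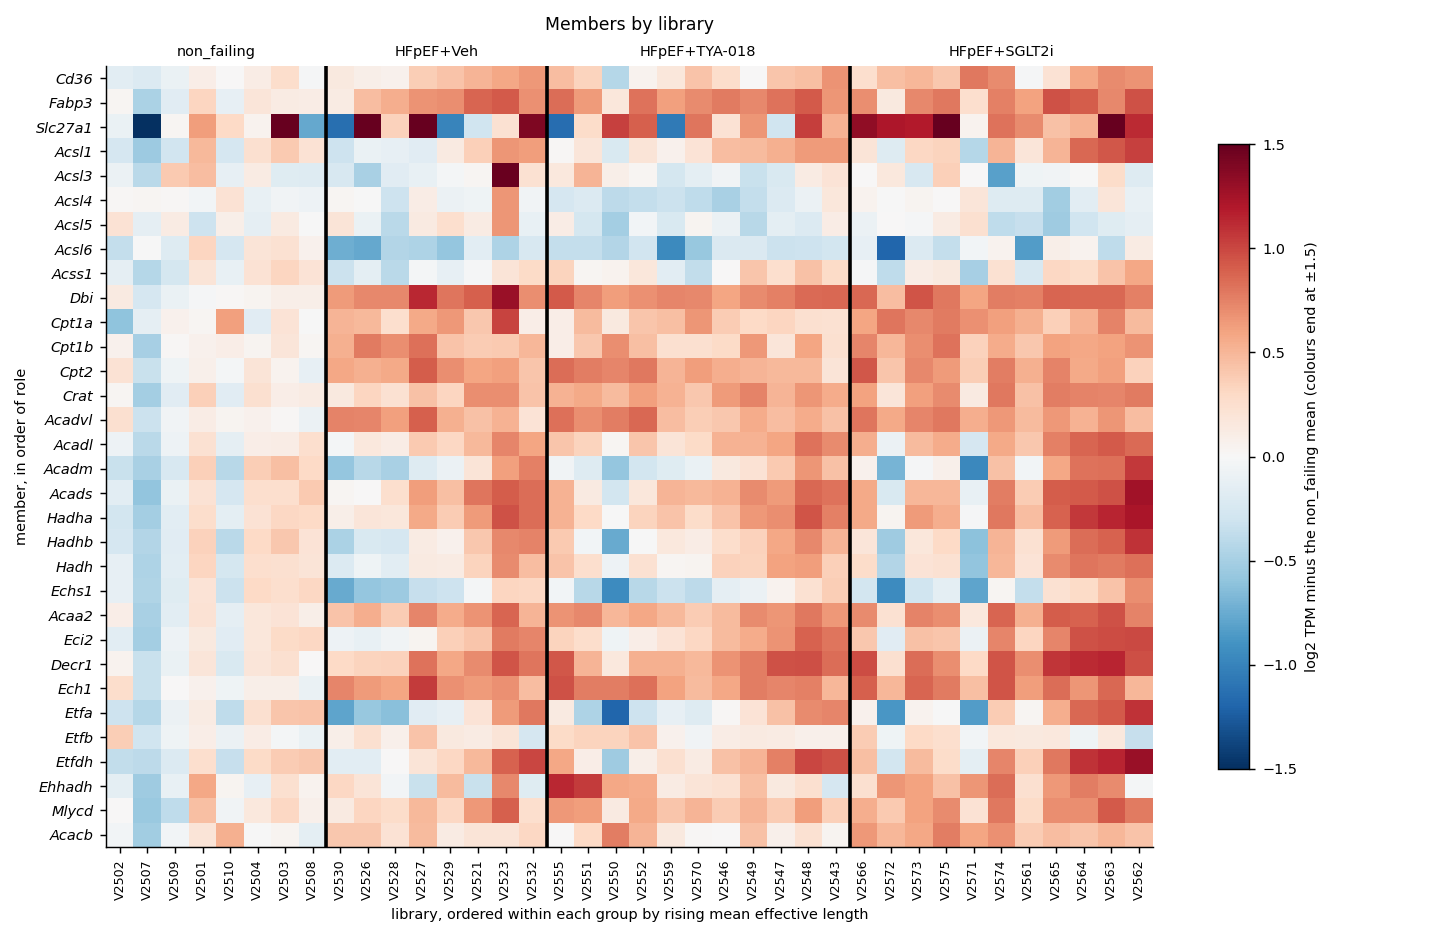
Level of 32 genes of the set (rows, pathway order) in each of the 38 libraries (columns, by group and then by rising mean effective length), as log2 TPM minus the non_failing mean; colours end at 1.5 on either side. Dbi and Ech1 are evenly higher across the HFpEF libraries, while Acadm, Etfa and Hadhb tend to be lower at the left of each group than at the right.

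Within groups, genes of the set differed in how much they varied between libraries. The within-group SD of log2 CPM (counts scaled to library size) was 0.15 for Cpt1b, 0.16 for Dbi and 0.18 for Ech1, and 0.53 for Etfa, 0.52 for Acadm, 0.46 for Hadhb and 0.45 for Etfdh. In HFpEF+SGLT2i the highest library held 4.07 times the Acadm TPM of the lowest, against 1.41 times for Ech1. The variation ran with a property of the library, the mean effective length of its transcripts (the length that could yield reads, as salmon estimates it), which spanned 1741 to 2158 bases. Group ranges of this length overlapped, with medians of 1934 bases in non_failing, 1871 with vehicle, 1908 with TYA-018 and 1929 bases with empagliflozin.

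After group means were removed, Acadm correlated with the log2 mean effective length at a Pearson r of 0.79 and a Spearman rho of 0.81 over the 38 libraries. The permutation p, with libraries shuffled within groups, was 1e-05 for both, the smallest that 100000 resamples can give (adjusted p over the 33 genes 2.54e-05), and r was 0.73 without the 2 libraries of the most extreme length, V2532 and V2562. Of the 33 genes, 18 had a positive and 3 a negative relation at an adjusted permutation p under 0.05, and 12 had neither. The relation was not computed for genes outside the set, so these counts do not set the 33 apart from other genes. Etfdh (r 0.78), Acsl1 (0.77), Etfa (0.76), Acads (0.75), Hadha (0.73), Hadhb (0.72) and Eci2 (0.71) followed Acadm. The 3 negative relations were those of Eci1 (-0.83, its listings at 0 included), Etfb (-0.72) and Dbi (-0.43). Thus the subunits of electron transfer flavoprotein ran in opposite directions with library length. Of the 9 genes called in HFpEF+Veh, Cpt2 (r 0.47), Decr1 (0.42), Acsl6 (0.39) and Dbi had such a relation, and Fabp3 (0.30), Acaa2 (0.09), Ech1 (-0.00), Cpt1a (-0.04) and Cpt1b (-0.11) did not pass the test. Counts and lengths come from the same libraries. The next fit holds this length as a covariate, and its part in the group differences was not tested.

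**Figure D4:**
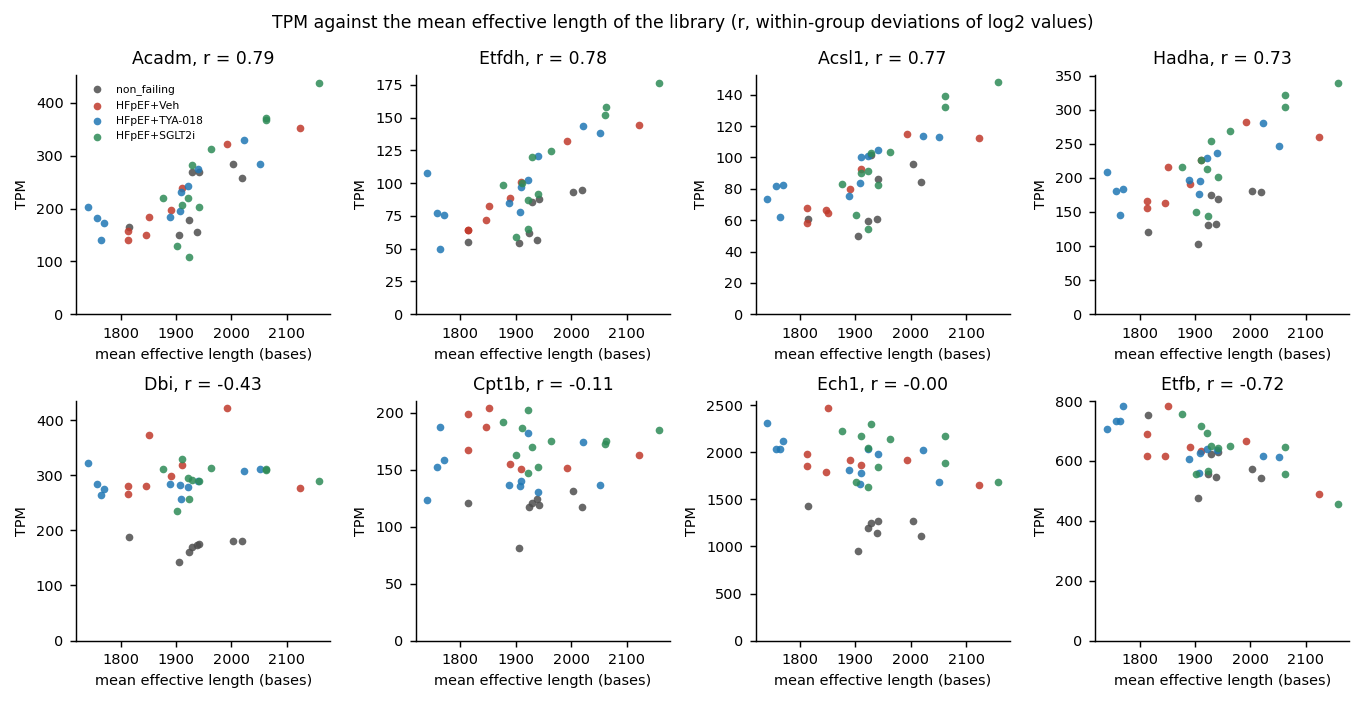
TPM (vertical axis, from 0) of 8 genes of the set against the mean effective length of the library in bases (horizontal axis), 1 point per library, coloured by group; r is Pearson's r of within-group deviations on the log2 scale. Acadm, Etfdh, Acsl1 and Hadha rise with length, Etfb falls, and the Dbi and Ech1 values of non_failing lie below those of the HFpEF groups at short and long lengths.

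With the mean effective length as a covariate, a fit added after the data were seen, 13 genes of the set were called higher in HFpEF+Veh than in non_failing, where 2.23% of all genes were. The 8 genes called before were among them, with Cd36, Crat, Acadvl, Acads and Hadha added. Hadha then gave 0.45 (adjusted p 0.0171) and Cd36 0.33 (adjusted p 0.0445). TYA-018 against vehicle gave 4 genes called higher, where 4.10% of all genes were, namely Acsl1 (0.33, adjusted p 0.0489), Acss1 (0.35, adjusted p 0.0379), Crat (0.28, adjusted p 0.0433) and Eci2 (0.39, adjusted p 0.0207). Against non_failing, 20 genes were called higher with TYA-018 and 19 with empagliflozin, where 5.56% and 6.81% of all genes were. Empagliflozin against vehicle kept 1 call, Acacb (0.42, adjusted p 0.00779), where 0.385% of all genes were called higher. Between the drugs, Acacb was called as well (-0.31, adjusted p 0.0386), where 4.37% of all genes were called in either direction, so 1 gene of 33 is not above the share of all genes.

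Neighbouring genes of the pathway, 45 in number and set down with earlier results of these data known, were measured beside the set, and 42 were tested. In HFpEF+Veh 8 of the 42 were called higher and 0 lower (11 had a log2 fold change below 0). Among all genes, 1.77% were called higher and 1.38% lower. Since the list was drawn up with those results known, its share of calls is not a test of the list. Of the 8 called, 7 came from the 9 tested target genes of PPAR outside beta-oxidation. Angptl4, which restrains lipoprotein lipase, rose 3.24-fold (1.70 ± 0.33, adjusted p 0.0019) and the thioesterase gene Acot1 2.72-fold (1.44 ± 0.32, adjusted p 0.0062). Acot2 (0.81), Cidea (0.69), Pdk4 (0.68) and the lipid droplet gene Plin2 (0.43) were also among them. Without V2523, Pdk4 lost its call (adjusted p 0.102). Outside the PPAR targets, the call was Pex11a, a gene of peroxisome division (0.60 ± 0.11, adjusted p 0.000646). Among the 9 PPAR and ERR factors themselves, 0 were called in HFpEF+Veh, with a median of -0.01. None of the 4 tested genes of carnitine supply and none of the 7 tested other carriers and synthetases was called there.

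Against vehicle, TYA-018 raised Ucp3, an uncoupling protein of muscle mitochondria (0.79 ± 0.21, adjusted p 0.037). Empagliflozin raised Ucp3 (1.17 ± 0.21, adjusted p 0.00129) and Pdk4, a kinase that shuts off pyruvate dehydrogenase (0.86 ± 0.18, adjusted p 0.00865). Of all 13765 genes, 115 were called higher than vehicle with TYA-018 and 18 with empagliflozin. Without V2523, Ucp3 passed with both drugs and Pdk4 with empagliflozin. Against non_failing, 17 of the 42 genes were called higher with TYA-018 and 18 with empagliflozin, all 9 PPAR targets in each, and 1 lower, Acaa1b, a peroxisomal thiolase gene at a mean of 0.963 TPM in non_failing. Slc25a20, the carnitine-acylcarnitine carrier, was among those called higher (0.74 ± 0.16 and 0.77 ± 0.16, adjusted p 0.00246 and 0.00177).

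Markers of other cells moved in part with these comparisons. Of 5 cardiomyocyte markers, Tnnt2 and Tnni3 were called lower in HFpEF+Veh and in HFpEF+SGLT2i than in non_failing. The median of Myh6 was 542 TPM in non_failing and 566 TPM in HFpEF+Veh. For Actc1 the medians were 2840 and 2810 TPM, and for Ryr2 26.3 and 22.5 TPM. The summed cardiomyocyte level was 9929 to 14879.8 TPM in non_failing and 9874 to 13006 TPM in HFpEF+Veh. Of 5 fibroblast markers, Lum and Pdgfra were called higher in HFpEF+Veh. The 5 summed to 168 to 272 TPM in non_failing and 242 to 587 TPM in HFpEF+Veh. These sums were mostly Dcn (medians of 208 and 252 TPM), which was not among the called markers. The highest sum was that of V2530, which held 515 TPM of Dcn. White adipocyte markers summed to at most 0.671 TPM in any library and the brown fat gene Ucp1 reached at most 0.116 TPM. The sum of 4 brown fat markers, Cidea among them, was 13.2 to 18.9 TPM in non_failing and 20.5 to 31.1 TPM in HFpEF+Veh. This sum was nearly all Cidea, already counted among the PPAR targets, with medians of 14.7 and 25.9 TPM. In HFpEF+Veh the medians of Ucp1 and Elovl3 were 0 and that of Cpn2 was 0.0546 TPM. Of the 8 hepatocyte markers, all were called lower with both drugs than with vehicle, but without V2523 only Apoa1 and Serpina1c with TYA-018 and 0 with empagliflozin. Their sum was 8.35 to 28.6 TPM with TYA-018 and 13.6 to 26.3 TPM with empagliflozin. Against non_failing, 7 of the 8 were called lower in HFpEF+Veh without V2523. The part of these cells in the results was not tested beyond leaving out single libraries.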

How the data were processed

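Left ventricular RNA was sequenced from a stranded polyA library per mouse. The authors trimmed reads with fastp, quantified transcripts with Salmon 1.6.0 and summarised them to genes with tximport. Labels and published methods disagree on genome build, read length and pairing. The deposited tables hold expected counts per gene, TPM, and effective lengths in bases, and all columns matched a title (unmapped columns 0). Listed TPM summed to 950659 to 965392 per library, since not all transcripts are listed.

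Expected counts were rounded, filtered with filterByExpr and scaled by TMM. One edgeR 4.0.16 quasi-likelihood model (R 4.3.3) held the 4 groups with no covariate. Genes were called at a Benjamini-Hochberg adjusted p under 0.05 over all 13765 genes tested. Errors are SE, and 95% intervals used 34 degrees of freedom. The p-values measure the spread between mice. The script was tested on simulated data. Alternatives were library size alone, DESeq2 size factors, DESeq2 1.42.0, no filter, limma 3.58.1 on log2(TPM + 1) and log2(TPM + 0.1), a length offset, only the 2 groups compared, each library left out, and, chosen after seeing the data, covariates of effective length and depth.

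Levels were given for all 33 genes, and fold changes for those called and, with vehicle against non_failing, also for Cd36, Fabp3, Cpt1b, Cpt2, Acadl, Acadm, Hadha, Acacb and Mlycd. Other values, such as those of the drugs against each other, were chosen after they were seen. The genes, neighbouring genes and marker lists were chosen with earlier results of these data known. Positions come from GENCODE M21 and promoters from RefSeq. Some values of neighbouring genes are not reported here.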

Additional observations from a re-analysis of the deposited data

Results flagged for a closer look

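A library that lay apart from the others of its group was looked for in the TPM of each gene of the set in the 2 groups of 8 libraries, which gave 66 pairs of gene and group, and 5 were found, where chance gives about 1 in 20. In HFpEF+Veh, V2523 held 3.42 TPM of Acsl3 (next library 1.44 TPM) and 4.19 TPM of Acsl4 (next 2.86 TPM). This is the library with a summed hepatocyte marker level of 1199 TPM. In the same group V2527 held 2473 TPM of Ech1 (next 1979.8 TPM), and Ech1 in HFpEF+Veh passed the test in all 38 fits that left out 1 library. In non_failing, V2507 held 81.7 TPM of Cpt1b, below the next library at 117 TPM, and without V2507 the adjusted p of Cpt1b in HFpEF+Veh was 0.00313. V2510 held 3.07 TPM of Acsl4 (next 2.70 TPM), and without V2510 Acsl4 in HFpEF+TYA-018 was no longer called (adjusted p 0.109). The treated groups of 11 libraries were not examined in this way.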

How the results depend on the processing

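Of 49 named fold changes, 43 of them called, under 10 alternatives that left out no library, 460 of 490 values kept their direction and side of the threshold, 24 lost and 6 gained a call, and 0 changed sign. With 1 library left out, 1795 of 1862 kept both, 67 lost the call and 0 changed sign. The count of genes called in HFpEF+Veh against non_failing was 9 and went from 7 to 9 with 1 library left out, and to 14 with effective length as a covariate. TYA-018 against vehicle gave 0, 1 at library size alone, 4 with the covariate, and 0 in every fit with 1 library left out. Empagliflozin against vehicle gave 1, but 0 at library size alone, with limma on log2(TPM + 1), with limma on log2(TPM + 0.1), with the length offset and with only the 2 groups compared, and 0 to 1 with 1 library left out. TYA-018 against empagliflozin gave 0, and 1 with the covariate. Against non_failing, TYA-018 gave 15 (11 to 17 with 1 library left out) and empagliflozin 18 (16 to 19). The cause of these shifts was not tested. No paired analysis was possible because no mouse number is shared between groups. Library depth as a covariate changed no call of the 49 values. A depth at which a gene at a few TPM, such as Slc27a1, would be measured better was not tested.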

Other observations

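Expected counts were whole numbers in 76.7% of values. The 5 endothelial markers summed to 152 to 222 TPM in non_failing, 173 to 246 TPM in HFpEF+Veh, 142 to 204 TPM in HFpEF+TYA-018 and 138 to 276 TPM in HFpEF+SGLT2i, and 5 skeletal muscle markers to 914 to 1314 TPM in non_failing and 1003 to 1299 TPM in HFpEF+Veh. The 4 macrophage markers found summed to 43.5 to 77.2 TPM in non_failing and 58.4 to 106 TPM in HFpEF+Veh. These ranges overlap between groups. The skeletal muscle sum was mostly Ckm (median 947 TPM in non_failing and 1014 TPM in HFpEF+Veh) and hides 1 vehicle library. Myh4 was listed at 0 in 7 vehicle libraries and at 7.84 TPM in V2532. That library also held 16.9 TPM of Tnnt3, against a vehicle median of 0.568 TPM. V2532 had the highest vehicle level of 6 of the 33 genes. Without it, all 49 named fold changes kept their direction and side of the threshold.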
